A study of Mus musculus with 8 samples.

Results

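Small RNA of 19 to 33 nt that mapped to histone genes was followed through the purification of the chromatoid body from adult mouse testis. Histone genes were taken by symbol, as all rows of the 5 deposited tables whose name starts with Hist and a digit, H2af, H3f or H1f, leaving out H1fnt. This gave 64 of 10822 features: 57 replication-dependent genes, the Hist genes, with 2 for H1, 15 for H2A, 18 for H2B, 9 for H3 and 13 for H4, and 7 variant genes. Of the replication-dependent genes, 47 lie on chromosome 13, 6 on chromosome 3, 3 on chromosome 11 and 1 on chromosome 6, and 1 is the pseudogene Hist3h2bb-ps.

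All libraries came from C57BL/6 mice of at least 6 weeks. The lysate was made from cross-linked, sonicated cells of the seminiferous tubules. Spinning it gave the supernatant and a first pellet, and the first pellet, sonicated again and filtered, gave a second pellet. The second pellet was then the input for immunoprecipitation (IP), by antibodies to MVH, the germ cell RNA helicase DDX4 that marks the chromatoid body, and, as control, to acrosin (ACR), a protease of the acrosome. A further library came from sorted round spermatids labelled hetMIWI, which the labels do not explain. MVH IP had 2 libraries, given as 1 column, and each other group 1. The pellet column is tied by the labels to both pellets and is given as the authors' pellet value. No difference below therefore has a replicate check: it compares libraries, not conditions.

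Histones package DNA: H2A, H2B, H3 and H4 form the nucleosome core and H1 binds the linker. Replication-dependent genes are transcribed in S phase, have no introns as a rule, and end their mRNA in a stem-loop in place of a poly(A) tail. Variant genes are expressed through the cell cycle, mostly as polyadenylated mRNA. Male germ cells also use testis-specific forms, among them the linker histone H1t (Hist1h1t), TH2A (Hist1h2aa) and TH2B (Hist1h2ba), before transition proteins and protamines replace most histones in late spermatids. The libraries hold short RNA only, so a value on a histone gene counts short fragments or small RNA and is not the level of the mRNA. Whether these reads are degradation products, piRNA or small RNA of another kind was not tested.

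Many replication-dependent histone genes copy each other so closely that a short read often cannot be placed. In GENCODE M21 transcripts, the share of 26-base stretches of a coding sequence that also occur in another gene had a median of 86.5% over 56 replication-dependent genes and 37.3% over the 7 variant genes. H1 genes stand apart, with 0% for Hist1h1t and 1.30% for Hist1h1a, as does the variant linker histone H1fx with 0%. Hist1h2ba had 46.2%, against a median of 87.4% over the other 16 H2B genes with a coding sequence, and Hist1h2aa 14.2%. Hist1h4m and Hist1h4n were at 100%, as were Hist2h2aa1 and the variant genes H2afz and H3f3a. The variants H2afz, H3f3a and H2afb1 shared no stretch with another member, only with annotated genes outside the members. The first 90 coding bases of 5 genes show the range, from the testis-specific pair to a gene with no placeable stretch. Capitals mark bases that lie in no 26-base stretch shared with another gene.
Hist1h2ba: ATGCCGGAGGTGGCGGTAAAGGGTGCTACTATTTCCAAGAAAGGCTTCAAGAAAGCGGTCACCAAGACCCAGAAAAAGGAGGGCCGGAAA
Hist1h2aa: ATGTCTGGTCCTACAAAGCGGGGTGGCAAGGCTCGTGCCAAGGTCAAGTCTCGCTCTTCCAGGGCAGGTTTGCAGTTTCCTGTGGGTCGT
Hist1h2bk: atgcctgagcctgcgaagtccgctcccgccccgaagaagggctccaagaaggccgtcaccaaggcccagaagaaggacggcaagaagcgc
Hist1h4c: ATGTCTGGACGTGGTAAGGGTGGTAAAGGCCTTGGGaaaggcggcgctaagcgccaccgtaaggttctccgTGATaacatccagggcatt
Hist1h4n: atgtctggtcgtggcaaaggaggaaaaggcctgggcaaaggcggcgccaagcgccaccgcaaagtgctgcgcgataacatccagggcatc
All 90 bases were distinct in Hist1h2ba and Hist1h2aa, 40 in Hist1h4c and 0 in Hist1h2bk and Hist1h4n. The sources used here do not say how the authors counted reads with several matches, so values of core histone genes with much shared sequence are uncertain between copies. Less shared than Hist1h2ba were, besides Hist1h2aa, the H4 genes Hist4h4 (4.53%) and Hist2h4 (20.6%), the H2B gene Hist2h2be (25.3%) and the H2A gene Hist2h2ab (35.9%). So were the variant H2A genes H2afv (0%), H2afx (32.9%) and H2afb1 (37.3%).

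**Figure D1:**
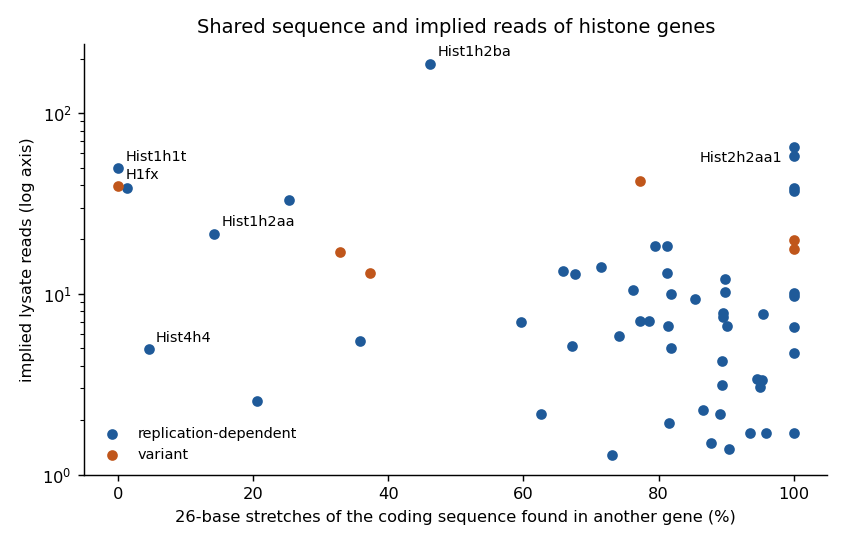
Each point is a histone gene, with the share of 26-base coding stretches found in another gene (%) against its implied lysate reads on a log axis, replication-dependent in blue and variant in orange. Hist1h2ba has the most reads, 188, at a sharing of 46.2%, and most other replication-dependent genes lie to the right with few reads.

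The histone stem-loop motif was searched on the transcript strand and found in the transcripts of 36 of 56 replication-dependent genes and 1 of 7 variant genes, against 0.155% of all 55450 annotated genes. The variant with a match was H2afx, the H2A.X histone that is phosphorylated at DNA breaks. Stems of 2 replication-dependent genes and of H2afx are shown as examples of the match.
Hist1h1t: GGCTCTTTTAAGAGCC
Hist1h4c: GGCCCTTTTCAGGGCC
H2afx: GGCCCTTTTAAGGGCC
Here capitals mark the whole motif. The transcript models of 11 replication-dependent genes, Hist1h2ba and Hist1h2aa among them, hold coding sequence only, so their ends could not be searched. The 36 matches thus lie among the other 45. Some of those 45 models extend little beyond the coding part, such as Hist1h2af with 399 bases against 393. A gene without a match is therefore not shown to lack the stem-loop. For each member 1 transcript was searched, but for the share of all genes any transcript counted.

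In FPKM, the authors' fragment count scaled to gene length and library size, a short gene is favoured. The authors' test statistics give the counting standard error (SE) of each ratio of supernatant to lysate, and from it the reads behind a value. Over 11 histone genes picked by hand as loci of 1 exon, FPKM times locus length per implied read ran from 123 to 325. FPKM times locus length less 200 bases ran from 110 to 117. This narrow range is that of the chosen genes, and the other members were not included. For these genes FPKM thus followed the locus length less about 200 bases. On that scale a short coding-only locus has a higher FPKM for the same reads. Among the members, 28 loci in the tables equal the coding length. Levels below are therefore given in FPKM and, where possible, as implied lysate reads.

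**Figure D2:**
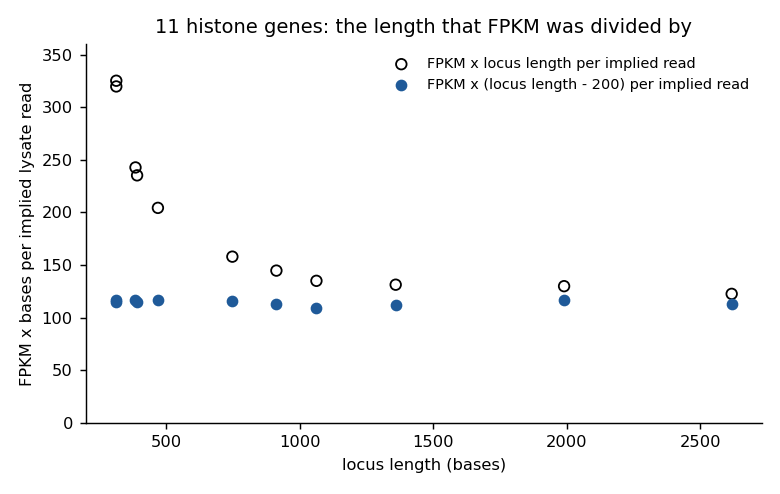
For 11 histone genes picked by hand, FPKM times bases per implied lysate read is plotted against locus length in bases, with the full length (open) or the length less 200 bases (blue). The open points fall from 325 to 123 with length, and the blue points stay between 110 and 117.

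Few reads lay behind most of these values, although 44 of 61 members were above the median lysate FPKM of named genes. In the supernatant table the members took 1.78% of the lysate FPKM of named genes but 0.276% of the 354902 implied lysate reads on such genes. These were 979 reads over 60 genes, with a median of 7.58 per gene and 34 genes under 10; over 3597 named genes the median was 26.5 reads and 17.4% were under 10. Of the cell type markers, all 8 of the round spermatid list were listed in the lysate with a summed level of 458 FPKM, 5 of 5 for spermatocytes with 49.0, 3 of 4 for Leydig cells with 16.7, 2 of 4 for spermatogonia with 2.4999, 1 of 3 for Sertoli cells with 2.08 and 1 of 3 for blood with 1.32. The round spermatid table listed 1 of the 8 round spermatid markers, Prm1, at 26.8 FPKM, and also the spermatocyte marker Ldhc at 18.3 FPKM and the spermatogonia marker Kit at 25.0 FPKM, among 1014 features in all. In the same lysate library, values of 43 members were 2.39 times higher in the pellet table than in the supernatant table. In the ACR IP table the median factor was 2.00 over 10 members, with 0.985 for Hist1h4h and a listing at 0 for Hist2h4. Ratios were therefore taken within a table.

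In the lysate a single gene stood out. Hist1h2ba, which encodes TH2B, was at 118.8 FPKM in the supernatant table, rank 25 of 3621 named genes, with 188 implied reads. It lies at chr13:24025642-24026025 (mm9), a locus of 1 coding exon. It held 30.01% of the members' lysate FPKM and 19.2% of their implied reads. The next was Hist2h2aa1, an H2A gene with a near-identical neighbour copy, at 18.6 FPKM and 57.8 reads, so that Hist1h2ba was 6.39 times higher. By reads the next was Hist3h2a, another H2A gene, with 64.9 reads at 4.24 FPKM.

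The H4 genes filled most of the following ranks. Hist1h4f was at 14.4 FPKM, Hist1h4b at 14.2, Hist1h4c at 13.7, Hist1h4a at 12.6, Hist1h4k at 10.9, Hist1h4n at 10.6 and Hist1h4j at 10.5. Their implied reads were few, between 10.03 for Hist1h4j and 14.0 for Hist1h4f, so the order among them is not resolved by the counting error. Hist1h4m and Hist1h4n are listed at the same locus, chr13:21903615-21904017 (mm9), yet at 4.68 and 10.6 FPKM. H4 encodes the same core protein from many copies, and these values cannot be assigned to single genes.

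Of the other testis-specific members, Hist1h2aa was at 13.0 FPKM with 21.6 reads and Hist1h1t at 7.86 FPKM with 49.6 reads. Hist1h1a, a somatic-type linker histone of dividing cells, was at 8.17 FPKM with 38.7 reads. The lysate levels of the 14 H2A genes in that table had a median of 1.59 FPKM among those that passed the filter below, those of the 18 H2B genes 2.71, of 7 H3 genes 1.35 and of 13 H4 genes 10.5. H3 genes had the fewest reads, at most 4.99 for any of 8 genes.

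The variant genes were at moderate levels with longer loci. H1fx was at 5.02 FPKM and 39.5 reads, and H2afb1 at 4.79 FPKM and 13.0 reads. H2afz, which encodes the H2A.Z variant of promoters, was at 2.68 FPKM and 17.6 reads, and H2afx at 1.65 FPKM and 17.0 reads. H3f3a and H3f3b, both of which encode the replacement H3 that is deposited outside S phase, were at 2.4998 and 2.66 FPKM with 19.9 and 41.9 reads. H2afv was listed only in the MVH IP table. The H2afb1 row lies at chr2:17918049-17918573 (mm9) and carries an accession that RefSeq now names H2al2a, a short H2A form of spermatids, so it is not the gene with that symbol on the X chromosome.

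**Figure D3:**
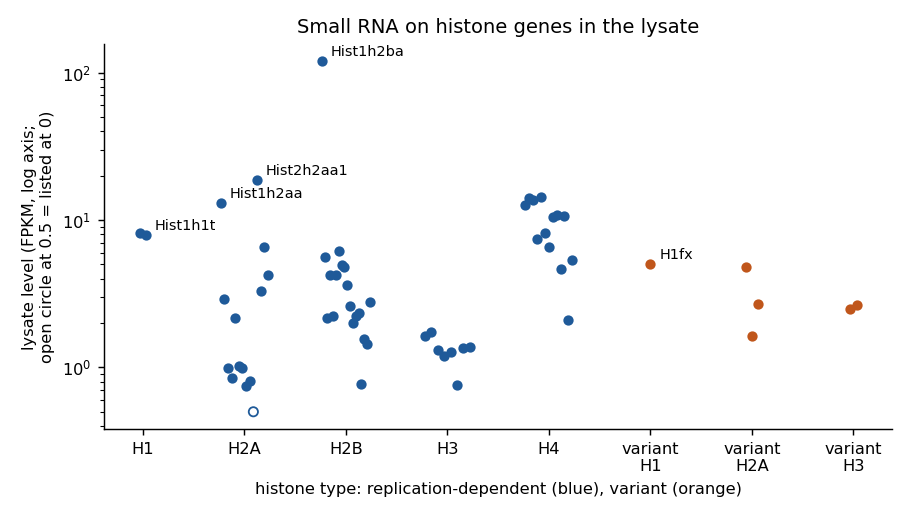
Lysate FPKM of each histone gene in the supernatant table, on a log axis, by histone type, with replication-dependent genes in blue and variants in orange; the open circle at 0.5 stands for Hist1h2ao, listed at 0. Hist1h2ba at 118.8 FPKM lies far above the next gene, Hist2h2aa1 at 18.6.

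Hist1h2ba and Hist1h2aa are neighbours, transcribed away from each other. Their RefSeq promoter windows of 300 bases (GRCm38.p6), chr13:23934107-23934406 on the minus strand and chr13:23934187-23934486 on the plus strand, share 220 bases. The window of Hist1h2ba is printed because both genes share most of it, with CCAAT and TATAAA in capitals, searched on both strands (ATTGG and TTTATA on the other).
Hist1h2ba promoter: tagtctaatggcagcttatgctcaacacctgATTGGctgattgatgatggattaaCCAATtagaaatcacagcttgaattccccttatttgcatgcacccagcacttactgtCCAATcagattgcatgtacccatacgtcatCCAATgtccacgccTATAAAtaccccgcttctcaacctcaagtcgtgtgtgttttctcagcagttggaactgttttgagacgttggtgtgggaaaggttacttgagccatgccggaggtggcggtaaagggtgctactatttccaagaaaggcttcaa
It holds CCAAT 4 times and TATAAA 1 time, and the Hist1h2aa window holds them 4 and 2 times. Of 32851 promoter windows of the same length, 37.4% hold CCAAT at least 1 time, 1.06% at least 4 times, and 13.6% hold TATAAA. The matches are a description of these letters, not of bound factors. The small RNA levels of the pair were unequal in each column where both were above 0. Hist1h2ba was 9.14 times higher than Hist1h2aa in the lysate, 7.84 times in the supernatant, 6.70 times in the pellet, 5.32 times in MVH IP and 31.6 times in round spermatids. The MVH IP values may rest on few reads, as given below, and Hist1h2aa was at 1.88 FPKM in round spermatids. Any relation of these levels to the promoter was not tested. The part of these ratios that comes from reads shared with other H2A and H2B genes was not tested either.

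The supernatant was compared with the lysate it was spun from, to ask which small RNA was soluble. Histone genes as a whole lay where all features lay. On the log2 scale of (FPKM + 1), for genes at or above 1 FPKM in either column, 54 replication-dependent genes had a median ratio of supernatant to lysate of 0.03 and 6 variant genes 0.37, against 0.02 over 4999 features. Of these 60 genes, 2 were higher by at least 2-fold (7.16% of all features) and 0 were lower by as much (5.42% of all features). Those 2 were Hist1h2ao, an H2A gene at 1.52 FPKM in the supernatant and listed at 0 in the lysate, and Hist2h2bb, an H2B gene at 2.99 against 0.773 FPKM (log2 ratio 1.17, SE 1.06). The SE here and below is that of the ratio without a pseudocount, and covers counting error only.

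By the q-values of the authors' deposited table, with a limit of 0.05, 1 member was higher, H1fx (3.82% of all features were higher by that rule), and 0 were lower (4.9% of all features). H1fx was at 10.3 FPKM in the supernatant and 5.02 in the lysate (log2 ratio 0.90, SE 0.264; q = 0.00171 in the authors' deposited table). The authors themselves called 0 members higher and 0 lower there, against 0.96% and 1.62% of all features; they called fewer features than had a q below that limit, by a rule that is not stated. The other variant genes had H3f3a at 4.70 against 2.4998 FPKM (log2 ratio 0.70, SE 0.377), H2afx at 2.61 against 1.65 (0.45, SE 0.417), H3f3b at 3.46 against 2.66 (0.29, SE 0.274), H2afz at 3.16 against 2.68 (0.18, SE 0.430) and H2afb1 at 3.84 against 4.79 (-0.26, SE 0.542). Thus 5 of 6 variant genes lay above 0, where 2649 of 4999 features also lay, and 1 of the 5 passed the q limit.

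The testis-specific genes were close to the lysate. Hist1h2ba was at 129.8 against 118.8 FPKM (0.13, SE 0.134) and ranked 22 among named genes. Hist1h1t was at 11.4 against 7.86 FPKM (0.48, SE 0.248; q = 0.21 in the authors' deposited table). Hist1h2aa was at 16.6 against 13.0 FPKM (0.33, SE 0.383).

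The median ratios of the core histones differed by type in this pair of libraries. H4 genes lay below 0 in 11 of 13 cases, with a median of -0.37 and 12 of 13 under the median of all features. Of all 4999 features, 2350 lay below 0. H2A genes had a median of 0.28 (14 genes), H2B genes 0.11 (18), H3 genes 0.01 (7) and the 2 H1 genes 0.32. Among the 13 H2A genes with implied reads, 9 had under 10 in the lysate. H2A genes held 18.5% of the members' implied reads in the lysate and 16.4% in the supernatant. For H2B genes these shares were 40.4% and 40.1%, and for H4 genes 14.4% and 9.75%. By reads, then, H2A genes took no higher share in the supernatant. Lowest were Hist1h4h, at 4.57 against 8.19 FPKM (-0.72, SE 0.499), Hist1h4b, at 8.38 against 14.2 (-0.69, SE 0.581), and the H2A genes Hist1h2ab (-0.67, SE 0.830) and Hist1h2ag (-0.61, SE 1.02). Hist1h3a, an H3 gene, was among the highest at 3.34 against 1.64 FPKM (0.72, SE 0.744). The H4 genes share sequence, so their common sign is not that of 13 independent genes. In the same way Hist1h2ad, Hist1h2ah and Hist1h2ai, 3 H2A copies, have an identical test statistic in the authors' deposited table. The median SE over the members was 0.658 on the log2 scale, against 0.367 over all features, so a difference of 2-fold was seldom resolved for a single histone gene.

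**Figure D4:**
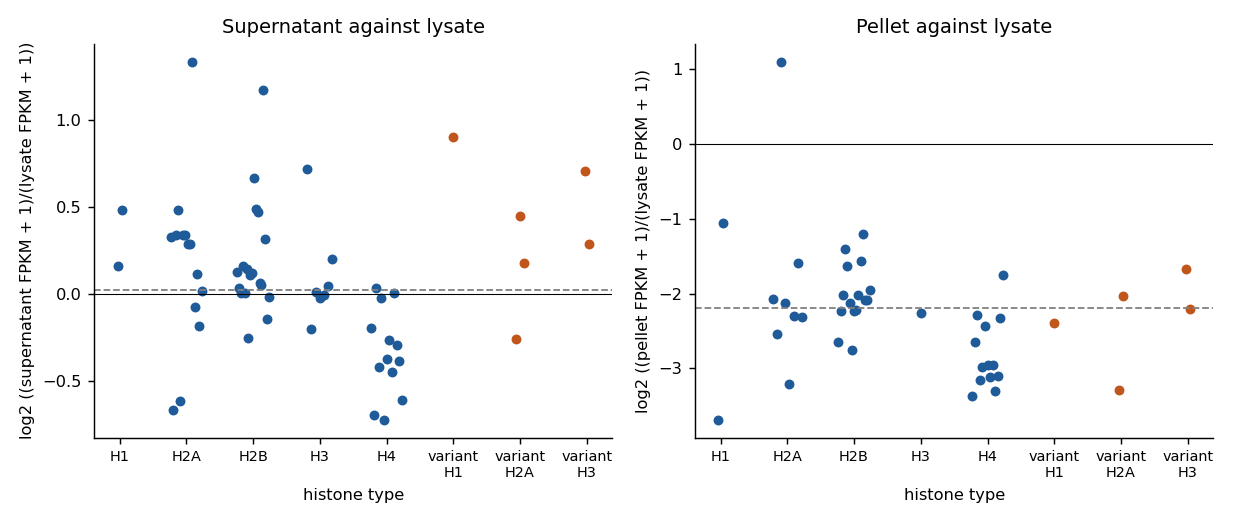
Log2 ratio of supernatant (left) and pellet (right) to lysate for each histone gene that passed the filter, by type, with replication-dependent genes in blue and variants in orange; the dashed line is the median of all features, 0.02 and -2.20. H4 genes lie lower than the dashed line in 12 of 13 cases in both panels, which share the lysate library.

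In the pellet, which the chromatoid body is purified from, nearly every histone gene was lower than in the lysate, as were nearly all features. The 39 replication-dependent genes had a median log2 ratio of -2.26 and the 5 variant genes -2.21, against -2.20 over 3005 features and -2.01 over named genes. At least 2-fold lower were 43 of 44 genes (86.5% of all features) and at least 2-fold higher 1 (8.75% of all features). By the same q limit in the authors' deposited table, 23 members were lower (69.4% of all features) and 1 was higher (5.59%). Each ratio should be read against the common shift of -2.20: relative to it 2 members were 2-fold or more above (14.6% of all features) and 5 were 2-fold or more below (17.1% of all features).

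Hist1h2ba was at 44.6 FPKM in the pellet, against 284.0 in the lysate column of that table (-2.64, SE 0.298). It was the only member the authors' deposited table called, as lower (18.7% of all features were called lower). It remained the highest member of the pellet, rank 36 of 1895 named genes. Hist1h2aa was at 6.65 against 31.1 FPKM (-2.07, SE 0.786), near the shift of all features.

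Hist1h1t, the H1 of spermatocytes, was the least lowered member, at 8.49 against 18.8 FPKM (-1.06, SE 0.403). The other H1, Hist1h1a, was the most lowered on the scale with a pseudocount, at 0.591 against 19.5 FPKM (-3.69, SE 1.39). Without a pseudocount it stood at -5.05, and Hist1h3b (-5.68, SE 5.98), Hist1h4m (-5.56) and H2afb1 (-5.40) were lower, each with a larger SE. Hist1h1t and Hist1h1a both have nearly no sequence shared with another gene and like levels in the lysate. In the pellet column Hist1h1t was 14.4 times higher than Hist1h1a, in the supernatant 1.23 times, and 0.962 times in the lysate column beside the pellet. The factor of 14.4 rests on 0.591 FPKM for Hist1h1a, whose SE of 1.39 leaves it poorly determined. It also sets the least lowered member against the most lowered, and the difference was not tested.

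The single member that was higher in the pellet was Hist1h2ac, an H2A gene not listed in the supernatant table, at 3.32 against 1.011 FPKM (1.10, SE 0.670; q = 0.0154 in the authors' deposited table, with no call). The H2B genes Hist1h2bp, at 1.51 against 4.79 FPKM (-1.21, SE 1.21), and Hist1h2bf, at 3.23 against 10.2 (-1.40, SE 1.22), followed. The 13 H4 genes had a median of -2.96, with 12 under the median of all features, the 15 H2B genes -2.08 and the 8 H2A genes -2.22. Among the lowest were Hist1h4a, at 2.00 against 30.1 FPKM (-3.37, SE 1.69), and Hist1h4m, at 0.237 against 11.2 (-3.30, SE 8.62, no usable precision). Of the variants, H2afb1 was at 0.271 against 11.4 FPKM (-3.29, SE 2.64), H1fx at 1.47 against 12.01 (-2.40, SE 0.743), H3f3b at 0.588 against 6.37 (-2.21, SE 0.799), H2afz at 0.813 against 6.41 (-2.03, SE 1.07) and H3f3a at 1.20 against 5.98 (-1.67, SE 0.855).

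Other genes of histone metabolism were set beside them. Of a list of 36 genes for histone mRNA processing and histone chaperones, 9 passed the filter in the supernatant table, with a median log2 ratio of 0.12, and 7 in the pellet table, with -1.44. In the pellet 5 of the 7 were lower and 1 was higher by the q limit in the authors' deposited table, a share close to that of all features (69.4% and 5.59%) for the lower ones. Nasp, a chaperone of H1 and of H3 with H4, was at 6.03 against 14.2 FPKM in the pellet (-1.11, SE 0.314), and Chaf1a, the large subunit of the replication-coupled assembly factor, at 4.22 against 2.08 (0.76, SE 0.422). Of 11 genes for the replacement of histones in spermatids, 7 passed there, all lower, with a median of -2.83. The transition protein gene Tnp1 was at 30.8 against 224.2 FPKM (-2.83, SE 0.321) and the protamine gene Prm1 at 26.6 against 398.0 (-3.85, SE 0.350).

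The MVH IP table has no lysate column of small RNA, so it gives levels only. Of 21 members listed, 17 were above 0, as were 4113 of 6392 named genes. The 17 were 14 replication-dependent genes with a median of 14.8 FPKM and 3 variants with 1.20. The median over those 4113 named genes was 2.69. These medians depend on locus length, as given below. Those 3 variants were at 0.458, 1.20 and 6.20 FPKM. Without H2afb1, the only one under 1 FPKM, their median was 3.70. Named genes under 1 FPKM were not left out of the 2.69, so 3.70 cannot be set against it. Hist1h2ba again had the highest value, 91.8 FPKM, rank 78 of 6392 named genes. Next came Hist1h4c at 84.7 and Hist2h2ab, an H2A gene, at 29.2 FPKM. Hist2h2aa1 was at 23.6 FPKM at each of 2 loci, Hist1h2ac at 20.2, Hist1h2aa at 17.3, Hist2h2ac at 17.2 and the H3 gene Hist1h3f at 12.4.

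The depth behind these values was estimated to be small. Among genes with well determined lysate reads, 299 of 1087 MVH IP values lay within 5% of a whole multiple of 24.2 lysate-read units. For a step 15% smaller the count was 54. The step of 24.2 was chosen because it gave the highest such count, so these counts do not test it. Most of the 1087 values lay off its multiples. If a step is 1 read, Hist1h2ba rested on 6.00 reads, Hist3h2a (6.76 FPKM) on 4.28, H3f3b (6.20 FPKM) on 4.03, Hist1h4c on 3.42 and Hist2h2aa1 on 3.03 per locus. Hist2h2ab stood at 2.01 steps, Hist1h2aa at 1.18, Hist2h2ac at 1.13 and Hist1h1t (3.96 FPKM) at 1.03. Over 15 members with such an estimate the sum was 29.97 steps, and 9 had at most 1.5. On short loci 1 step is a high FPKM: 14.6 for Hist1h2aa, 15.2 for Hist2h2ac and 24.8 for Hist1h4c. On the longer loci of H3f3b and H2afx it is 1.54 and 2.34. The replication-dependent median of 14.8 FPKM is thus near the value of 1 step on a short locus. It does not show a higher level than that of variant or named genes. Values well under 1 step also occur, at 0.513 for H2afx, 0.198 for Hist1h4a and 0.0513 for H2afb1, which are not whole reads on this scale. The order of the members, the first place of Hist1h2ba over Hist1h4c included, is therefore not resolved. H2afv, H3f3a, Hist1h1a and Hist1h2bp were listed at 0.

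In the ACR IP control most histone genes had no value above 0. Of its 11 members, 8 were listed at 0, as were 1046 of 2539 features and 603 of 1770 named genes. By at least 2-fold, 8 members were lower (59% of all features) and 1 was higher (36.4% of all features). Those above 0 were Hist2h4, an H4 gene, at 16.8 FPKM and listed at 0 in the lysate column, Hist3h2a at 4.17 against 8.47 (log2 ratio -0.87), and H3f3b at 4.16 against 5.13 (-0.25). Relative to the median of all features, -2.70, 3 members were 2-fold or more above (43.2% of all features) and 5 were 2-fold or more below (33.4% of all features). The step of this column was 21.1 lysate-read units (196 of 312 values within 5% of a multiple, against 15 for a step 15% smaller). It too was chosen for the highest such count, so these counts do not test it. In steps, Hist2h4 was at 0.966, Hist3h2a at 3.03 and H3f3b at 3.10.

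Hist1h2ba was listed at 0 in ACR IP against 238.5 FPKM in the lysate, and 3 steps would have been 40.003 FPKM. Of the 8 genes at 0, 4 had a lysate level above that floor of 3 steps: Hist1h2ba, Hist1h1t (16.1 against a floor of 10.04), Hist1h1a (16.8 against 13.4) and H1fx (9.52 against 8.04). For the other 4, Hist1h2aa, Hist1h4f, Hist1h4h and H2afb1, the lysate level was under that floor, so their 0 does not show a level below that of the lysate. The floor was compared with the lysate level itself, without the shift of all features in this column (median -2.70). The 4 genes above the floor are therefore not shown to lie below that shift. Hist1h2ba was thus above 0 in MVH IP and at 0 in the control. The columns come from separately normalized tables of few reads, and the difference was not tested.

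**Figure D5:**
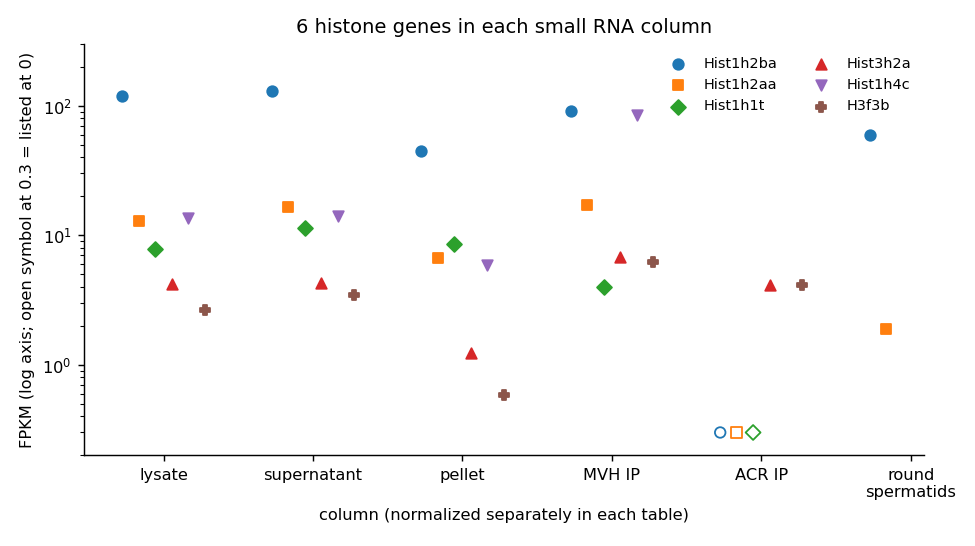
FPKM of 6 histone genes on a log axis in the lysate and supernatant columns of the supernatant table and in the other small RNA columns; open symbols at 0.3 stand for a listing at 0, and a gene not listed in a column has no symbol. Hist1h2ba is the highest in each column but ACR IP, where it is listed at 0.

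The round spermatid table listed 4 members. Hist1h2ba was at 59.5 FPKM, rank 37 of 348 named genes, H1fx at 5.59 and Hist1h2aa at 1.88, and the H4 gene Hist4h4 was listed at 0. The median over 341 named genes above 0 was 13.1 FPKM. In this table, then, Hist1h2ba lay above the middle of the named genes and Hist1h2aa near the bottom, at rank 329. Hist1h1t was not listed.

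Across all columns the share of named-gene FPKM that fell on histone genes was 1.78% in the lysate and 1.84% in the supernatant, 1.09% in the pellet, 0.541% in MVH IP, 0.231% in round spermatids and 0.0902% in ACR IP. The tables list different features, so these shares have different denominators.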

How the data were processed

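Small RNA libraries of 8 samples in 7 groups were deposited as 5 tables. TopHat, Cuffdiff and mm9 are named, without roles or versions, in the submitters' processing notes. The authors' values were taken as FPKM, a unit that the headers name only for the round spermatid column. For supernatant and pellet the authors' deposited tables also hold p-values, q-values, a test statistic (a score) and a call. The sources used here do not give the rule of that call. A long RNA column (1 in all) belongs to no sample here and was not used. The members and lists were chosen with earlier results of these data known. Named were the 10 highest members in the lysate, the 8 highest in MVH IP and round spermatids, the 4 highest and 4 lowest ratios per comparison above 0 in both columns, members with a call, the testis-specific genes and all variants.

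With 1 column per group no test was run. Ratios are log2 of (FPKM + 1) within a table; features under 1 FPKM in both columns were left out. SE is the log2 ratio over the authors' deposited test statistic. A supernatant read was taken as worth 0.667 lysate read, the most frequent ratio between the supernatant and lysate columns. At this step 509 features had the ratio times p/q, p and q whole and at most 6, to within 2e-05 in natural log. With the step moved by 1%, 4 did. The step came from these same values, so the counts do not test it. Implied reads assume counting variance. The formulas for ratios and implied reads were run on simulated counts built with the same variance formula and a known step. That checks the arithmetic only. Features with few reads, reads with several matches and the choice of step were not covered. Table starts, counted from 0, are printed counted from 1. Coding sequences are the longest reading frames of GENCODE M21 transcripts, and promoters and names come from RefSeq (GRCm38.p6). Figures used matplotlib 3.10.9 and tables pandas 2.3.3 and numpy 2.4.6, in Python 3.11.15. Alternatives were other pseudocounts, filters and centring, and 3 chosen after seeing the data: leaving out Hist1h2ba, keeping 1 of each set with identical statistics, and keeping members with at least 10 implied lysate reads.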

Additional observations from a re-analysis of the deposited data

How the results depend on the processing

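No paired analysis was possible because each group has 1 column of values. For the supernatant, the variant median stayed above 0 in all settings run, the replication-dependent median of 0.03 stayed near 0 and changed sign only with at least 10 implied lysate reads (-0.0048), and the count at least 2-fold higher went from 2 to 0 with a pseudocount of 10 FPKM, 1 with genes above 0 in both columns and 0 with at least 10 implied lysate reads. For the pellet, a pseudocount of 10 FPKM gave medians of -0.84 (replication-dependent) and -0.63 (variant), 0 higher and 17 lower; centring on all features gave -0.062, -0.018, 2 higher and 5 lower (14.6% and 17.1% of all features); at least 10 implied reads gave 0 higher and 24 lower, since fewer genes entered. For ACR IP, the medians were -4.13 and -3.40 and became -7.37 and -6.59 with a pseudocount of 0.1 FPKM, -1.40 and -0.97 with 10 FPKM (5 lower), -0.87 and -0.25 with genes above 0 in both columns (0 higher, 0 lower), and -1.43 and -0.70 after centring (3 higher, 5 lower, against 43.2% and 33.4% of all features). These ACR IP medians follow the pseudocount because 8 of 11 values are 0. In MVH IP the variant median of 1.20 became 3.70 among members at or above 1 FPKM, where H2afb1 drops out. Leaving out Hist1h2ba, run for the supernatant, pellet and ACR IP, and leaving out copies with identical statistics, run for the supernatant, moved none of those medians and counts beyond the limits used. Few reads per gene limit all of these values.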
